A study of Oryctolagus cuniculus with 20 samples.

Results

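Expression was compared between arterial grafts collected 30 days after surgery and unoperated vein of the rabbit (Oryctolagus cuniculus), over all 8657 genes that reached 1 FPKM (fragments per kilobase of transcript, scaled to library size) in at least 4 of the 20 libraries of the series, out of 23669 genes listed. Each of the 4 graft libraries came from a piece of common carotid artery that had been moved into a vein. The 4 vein libraries came from external jugular vein that had not been operated on, with no collection day given in the labels. The opposite, unoperated carotid artery of the same day, also 4 libraries, is used here for reference values, as are the grafts of day 14. The labels name no strain, sex, age or genetic change for any of these groups. They do not say that each library came from a separate animal or whether the veins came from grafted animals. P-values therefore measure a spread between libraries, which was pooled over all 5 groups of the series. All samples carry the cell line name HASMC and the same treatment entry, veins and unoperated arteries included, while the other labels describe vessel tissue. Since graft and vein differ both in the vessel they started as and in surgery, those 2 differences cannot be told apart in this comparison alone.

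Arteries and veins share the same cell types, an endothelial lining, smooth muscle and an outer layer of connective tissue, but keep different programmes. Arterial endothelium is known for ephrin-B2, Notch ligands and the connexins GJA4 and GJA5, venous endothelium for the nuclear receptor NR2F2, and smooth muscle of both for a contractile apparatus that it can lose while it divides and makes matrix. When a vessel is moved into another circulation its wall is known to be remodelled, and macrophages, which carry lipid, iron and proteases, are a known part of that response.

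The deposited values are FPKM without read counts, so the depth of each library and counting errors are unknown. FPKM summed to between 372809 and 465676 in the grafts and between 372916 and 406314 in the veins, with 7578 to 7740 and 6944 to 7333 genes at 1 FPKM or more. Over 3021 genes averaging at least 10 FPKM in the grafts, replicate 4 lay close to a weighted mean of the other 3 grafts (weights 0.3, 0.35 and 0.35), with a median absolute log2 difference of 0.0815 against 0.179 to 0.196 for the others. Vein replicate 4 behaved likewise over 2816 genes, with weights of 0.45, 0.2 and 0.35 and a difference of 0.0741, against 0.0979 in vein replicate 3 and 0.124 and 0.181 in the other veins. Counts without these 2 mixture-like libraries are therefore also given for many lists, an alternative that was added once the values had been seen. Lists shown without such a count did not all keep theirs. General endothelial markers, for example, went from 4 higher and 3 lower to 3 higher and 2 lower. A value of 0 in at least 1 of the 8 libraries occurred for 1321 tested genes, and 145 of these reached 20 FPKM or more elsewhere, so a 0 may be a failed estimate. Smooth muscle actin and the endothelial marker VWF were found in all 8 libraries. The opposite arteries of day 30 carried striated muscle markers at 489 to 619 FPKM in sum, against 30.2 to 61.6 FPKM in grafts and 28.5 to 41.0 FPKM in veins, and the part of this in their values was not tested.

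At day 30 the graft wall differed from vein in several directions at once. Of the contractile smooth muscle genes 19 of 27 were lower. Higher in the graft were 9 of 15 macrophage genes, 15 of 24 lysosomal and lipid genes, 19 of 28 matrix proteases and inhibitors, 14 of 19 cytokines, 18 of 24 cell division genes and 8 of 12 genes of collagens and their processing. Some genes are in more than 1 list, as MMP12 is in the macrophage and protease lists, so these counts are not independent of each other. Of the genes that mark arterial endothelium 12 of 14 were higher, and 7 without the 2 mixture-like libraries. The median of that list was 0.08 on the log2 scale between opposite artery and vein, and 1.15 between graft and opposite artery. Among 32 transcription factors of position in the body, the T-box genes TBX2 and TBX15 differed from vein but not past the threshold from the opposite artery. SHOX2 of the same list differed from both. THBS4, the secreted matrix protein thrombospondin-4 named in the title of the series, was also higher. By limma on log2(FPKM + 1), with Benjamini-Hochberg adjustment over all genes and a threshold of 0.05, 2894 of 8657 genes differed (33.4%), 1664 higher (19.2%) and 1230 lower (14.2%) in the graft. Every count of higher or lower genes in a list is to be set beside these shares. The graft and vein libraries did not overlap at all for 2971 genes (34.3%), with all grafts above all veins for 19.6% of genes and below them for 14.7%. In the same fit 37.6% of genes differed between graft and opposite artery and 29.8% between opposite artery and vein. Most calls were of modest size, 1769 being under 2-fold and 344 at least 4-fold, of which 257 were higher and 87 lower. Without the 2 mixture-like libraries 2104 genes passed. The median difference over all genes was 0.08 on the log2 scale and moved to -0.07 under quantile normalization, a shift of -0.15. The split of calls depended on this: 57.5% of calls were higher in the graft by the values as deposited, 53.9% with scaling by the median of ratios, 46.8% after scaling to TPM (1054 higher, 1198 lower) and 41.4% after quantile normalization (1269 higher, 1798 lower). Differences below are on the log2(FPKM + 1) scale, which understates changes of genes with low values, and errors are limma's moderated standard errors. These pool the spread of all 5 groups, so an error can be wider or narrower than the 8 values beside it. Over 1264 genes averaging at least 30 FPKM, the median SD on this scale was 0.19 in day 30 grafts and 0.14 in veins. It was 0.20 in opposite arteries of day 30, 0.32 in day 14 grafts and 0.07 in opposite arteries of day 14.

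**Figure D1:**
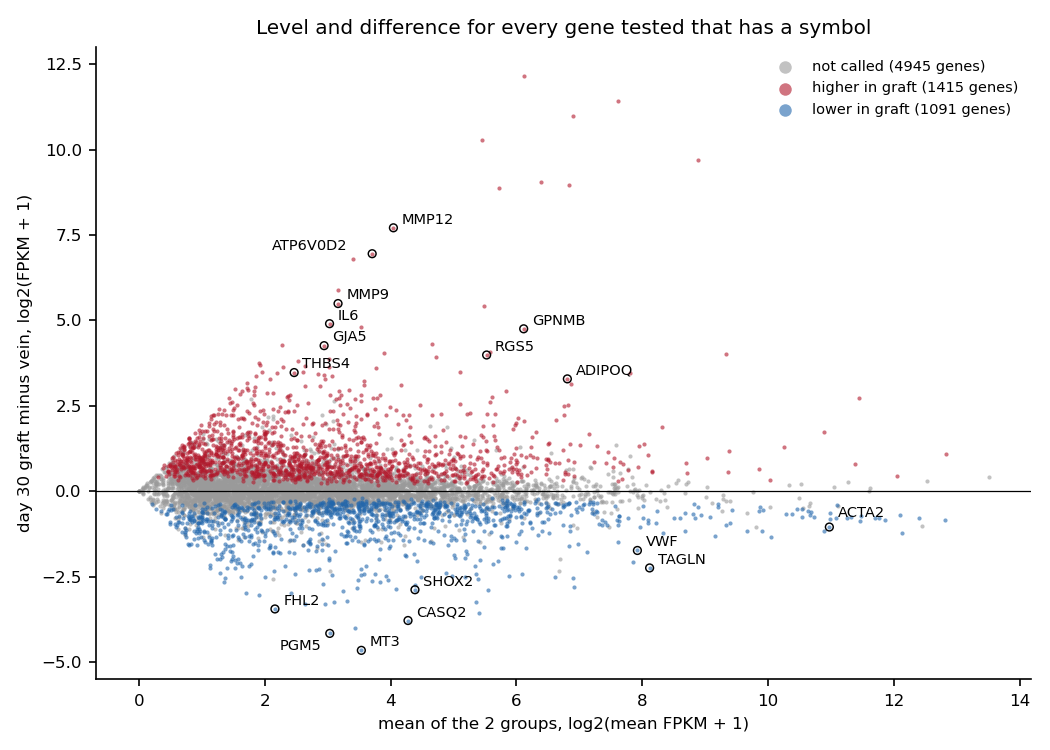
Each point is 1 of the 7451 tested genes with a symbol, with its level (mean of the log2 levels of graft and vein) on the x axis and its difference between day 30 graft and vein, log2(FPKM + 1), on the y axis. Of these, 1415 genes passed as higher (red) and 1091 as lower (blue), and the differences beyond 5 on the log2 scale lie on the higher side. They include MMP12 at 7.71 and mitochondrial transcripts such as CYTB, for which the text gives only listed values.

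Among smooth muscle genes of the contractile apparatus, 19 of 27 tested were lower in the graft and 1 was higher, with a median of -1.30 against 0.08 over all genes, and the same counts without the 2 mixture-like libraries. ACTA2, smooth muscle actin, was at 1617, 1213, 1381 and 1395 FPKM in the grafts and 3084, 2659, 2851 and 2916 FPKM in the veins (log2 difference -1.04, SE 0.15, adjusted p = 3.4e-05). Every graft lay below every vein. The opposite artery held more still, 6347 ± 980.07 FPKM (SD, n = 4), and day 14 grafts less, 641 ± 146 FPKM. TAGLN, the actin-binding protein transgelin, was at 109, 106, 165 and 128 FPKM in the grafts and 575, 739.53, 544 and 541 FPKM in the veins (log2 difference -2.24, SE 0.24, adjusted p = 2.41e-06). MYH11, the smooth muscle myosin heavy chain, was listed at 5.76, 4.55, 5.55 and 4.18 FPKM against 12.4, 16.7, 10.4 and 14.2 FPKM (log2 difference -1.25, SE 0.25, adjusted p = 0.000915). MYLK, the kinase that switches this myosin on, was at 17.5, 12.2, 11.8 and 13.5 FPKM against 42.04, 41.01, 37.3 and 40.02 FPKM (log2 difference -1.49, SE 0.16, adjusted p = 2.41e-06). For these 4 genes the groups were fully apart, and all grafts lay below all veins for 20 of the 27, against 14.7% of all genes. In these 4 genes the grafts also lay below the opposite artery, with differences of -2.14 to -2.38 on the log2 scale. Unoperated artery and vein differed in ACTA2 (log2 difference 1.13, adjusted p = 1.43e-05) but not past the threshold in TAGLN (log2 difference -0.10, adjusted p = 0.811). In whole tissue, fewer smooth muscle cells and less of these transcripts per cell cannot be told apart. Summed over the 27 genes, the grafts held 5039 to 6101 FPKM and the veins 12599 to 14095 FPKM, and the summed macrophage markers moved the other way, from 199 to 443 FPKM in veins to 1303 to 2097 FPKM in grafts. The part of this in the lower muscle values was not tested.

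Among the larger falls of this list were genes that tie the contractile filaments to the membrane or handle calcium. PGM5, a protein of muscle adhesion plaques, was at 1.68, 0.54, 0.93 and 0.6 FPKM in the grafts and 43.1, 21.9, 33.3 and 36.2 FPKM in the veins (log2 difference -4.15, SE 0.37, adjusted p = 2.81e-07). VCL, vinculin, which links actin to adhesions, was at 3.74, 1.33, 2.52 and 2.26 FPKM and 33.6, 14.9, 24.1 and 28.1 FPKM (log2 difference -2.91, SE 0.35, adjusted p = 6.54e-06). ITGA8, an integrin subunit of smooth muscle, was at 19.02, 13.3, 15.6 and 15.8 FPKM and 141, 55.5, 103 and 112 FPKM (log2 difference -2.55, SE 0.22, adjusted p = 2.06e-07). PLN, phospholamban, the brake on the calcium pump of the muscle store, was at 111, 130.36, 96.5 and 108 FPKM in the grafts and 474, 535, 445 and 429.83 FPKM in the veins (log2 difference -2.07, SE 0.12, adjusted p = 2.97e-09). All 4 genes were also lower in the graft than in the opposite artery, where PLN stood at 517 ± 67.1 FPKM and ITGA8 at 359.52 ± 41.8 FPKM. CASQ2, calsequestrin, which binds calcium within the store, showed another order. It was at 1.9, 7.23, 3.86 and 4.56 FPKM in grafts and 80.8, 57.8, 63.3 and 72.9 FPKM in veins (log2 difference -3.78, SE 0.27, adjusted p = 2.27e-08). The opposite artery was low as well, at 5.13 ± 2.14 FPKM, and graft and artery did not differ past the threshold (log2 difference -0.21, adjusted p = 0.584). TPM1, a tropomyosin that lies along actin, went against the list, at 19.8, 25.9, 25.2 and 24.3 FPKM in the grafts and 11.2, 14.5, 12.2 and 13.2 FPKM in the veins (log2 difference 0.85, SE 0.12, adjusted p = 5.03e-05). FHL2, a LIM domain protein of muscle, had 0, 0, 0 and 1.59 FPKM in the grafts, 0 in all 4 opposite arteries and 18.7, 11.5, 8.17 and 14.9 FPKM in the veins.

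Genes of ion channels and calcium handling followed the contractile list in part, with 14 of 29 lower and 5 higher (median -0.65). Without the 2 mixture-like libraries 14 were lower and 2 higher, and 2 or 3 were higher without graft replicate 2, 3 or 4 or vein replicate 2, 3 or 4. CASQ2 and PLN, given above, were among the lower genes of this list too. KCNK17, a potassium leak channel, was higher in the grafts, at 1.52, 3.34, 1.71 and 1.39 against 0, 0.04, 0 and 0 FPKM (log2 difference 1.52, SE 0.24, adjusted p = 9.37e-05). TRPV4, a calcium channel opened by stretch and flow, was at 2.45, 4.05, 5.12 and 3.96 FPKM in the grafts and 0.63, 1.19, 1 and 0.68 FPKM in the veins (log2 difference 1.37, SE 0.22, adjusted p = 0.00014). Neither KCNK17 nor TRPV4 overlapped between the groups. Over the 29 genes all grafts lay above all veins for 4 and below them for 14, against 19.6% and 14.7% of all genes.

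Genes known from smooth muscle that divides and makes matrix, the synthetic list, split into 8 higher and 3 lower of 16 (median 0.57). KLF4, a transcription factor tied to loss of the contractile state, was at 197, 52.2, 120.5 and 120.34 FPKM in the grafts and 12.6, 22.9, 17.7 and 16.6 FPKM in the veins (log2 difference 2.63, SE 0.45, adjusted p = 0.000241). Replicate 1 was its highest graft and replicate 2 its lowest, the order also found in the immediate early genes ZFP36, ATF3 and EGR3 below. CRABP2, a carrier of retinoic acid, was at 112, 82.5, 52.8 and 83.8 FPKM and 13.1, 18.6, 10.98 and 9.59 FPKM (log2 difference 2.57, SE 0.26, adjusted p = 9.47e-07). The opposite artery held 95.4 ± 34.6 FPKM and did not differ from the graft past the threshold (log2 difference -0.18, adjusted p = 0.636). TPM4, the tropomyosin of non-muscle filaments, was at 45.6, 30.4, 23.1 and 35.2 FPKM in the grafts and 6.6, 10.1, 13.8 and 9.44 FPKM in the veins (log2 difference 1.66, SE 0.24, adjusted p = 4.24e-05), with 12.2 ± 3.24 FPKM in the opposite artery. DCN, the small proteoglycan decorin, was lower in the graft (log2 difference -1.33, SE 0.21, adjusted p = 9.25e-05).

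**Figure D2:**
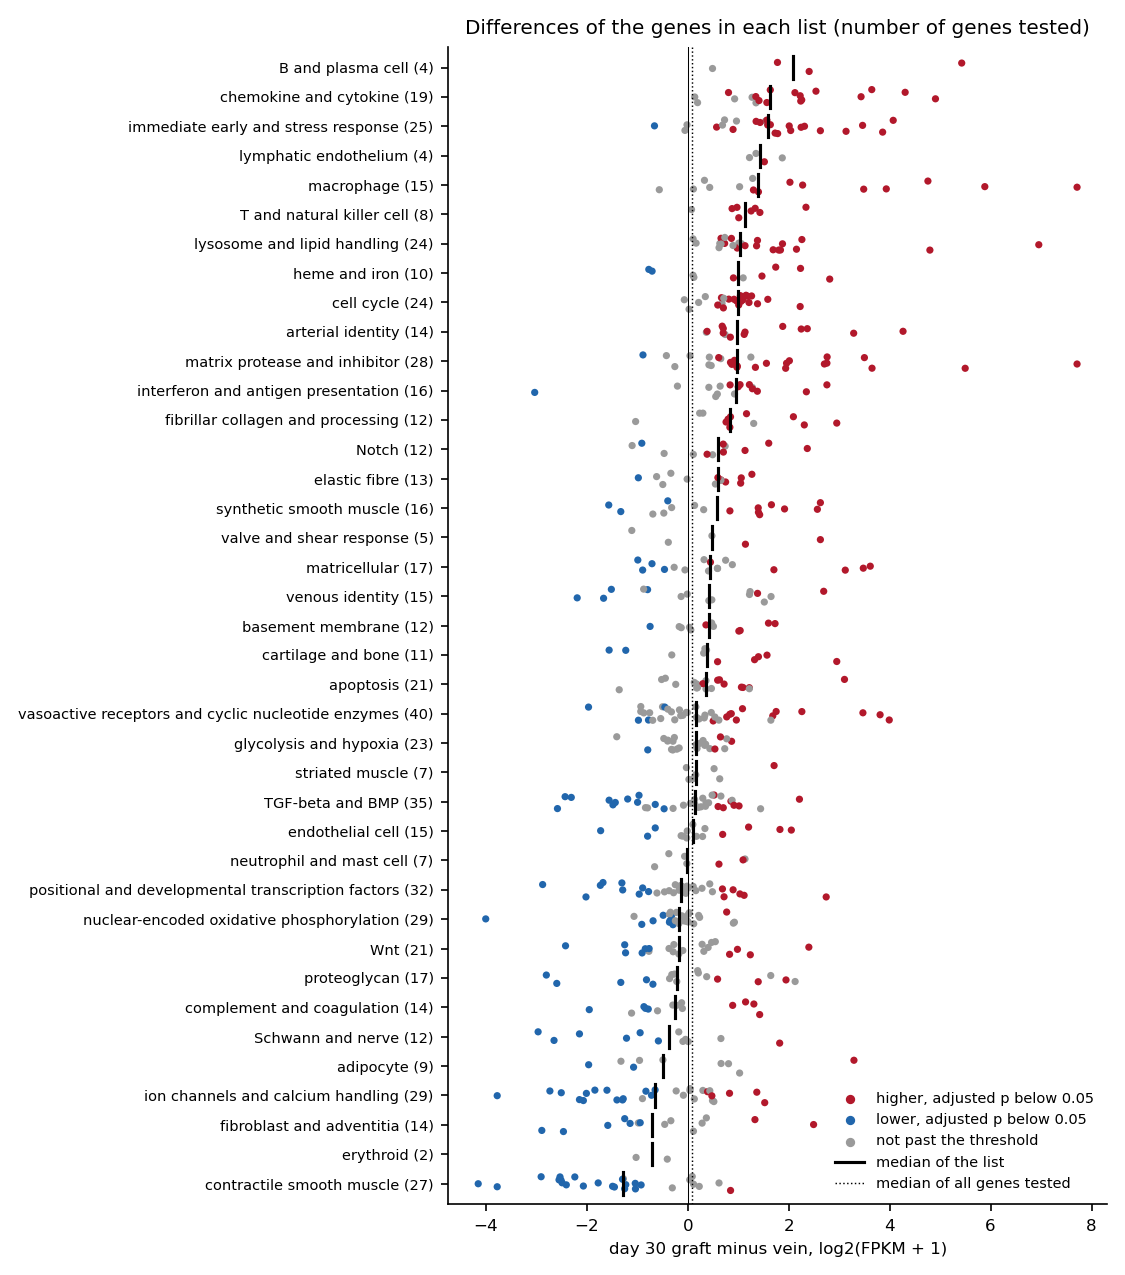
The 39 gene lists are ordered by their median difference between day 30 graft and vein on the x axis, log2(FPKM + 1), with 1 point per tested gene, red and blue for genes past the adjusted threshold and grey for the rest. The contractile list lies lowest, with a median of -1.30, and the B and plasma cell list highest, with 2.09 over 4 genes. The dotted line is the median over all genes, 0.08.

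Markers of arterial endothelium were higher in the graft for 12 of 14 genes tested and lower for none, with a median of 0.98, although 7 passed without the 2 mixture-like libraries. The median difference between the opposite artery and vein was 0.08, and that between graft and opposite artery 1.15. GJA5, a connexin of arterial endothelium and of the heart's conduction system, was at 24.9, 34.5, 30.9 and 35.4 FPKM in the grafts and 0.16, 0.54, 2.25 and 0.35 FPKM in the veins (log2 difference 4.26, SE 0.39, adjusted p = 3.92e-07). The lowest graft thus lay well above the highest vein. The opposite artery held 13.96 ± 3.42 FPKM, also more than vein (log2 difference 3.13, adjusted p = 9.2e-06), and less than the graft (log2 difference 1.13, adjusted p = 0.0304). DLL4, a Notch ligand of arterial and sprouting endothelium, was at 11.1, 10.98, 9.2 and 11.4 FPKM in the grafts and 0.93, 1.47, 0.99 and 1.74 FPKM in the veins (log2 difference 2.37, SE 0.33, adjusted p = 2.91e-05). GJA4, the partner connexin, was at 22.9, 49.98, 23.9 and 34.2 FPKM and 6.57, 4.87, 6 and 5.78 FPKM (log2 difference 2.25, SE 0.42, adjusted p = 0.000521). For DLL4 and GJA4 the opposite artery did not stand with the graft, at 1.67 ± 0.41 and 2.56 ± 0.79 FPKM. CXCR4, a chemokine receptor of arterial endothelium and of leukocytes, was at 13.1, 29.8, 24.7 and 25.6 FPKM in the grafts and 1.47, 0.68, 2.27 and 1.42 FPKM in the veins (log2 difference 3.29, SE 0.44, adjusted p = 2.05e-05). EFNB2, ephrin-B2 itself, differed less, at 16.4, 22.1, 15.6 and 17.99 against 11.5, 4.18, 7.04 and 10.1 FPKM (log2 difference 1.12, SE 0.22, adjusted p = 0.000809). Its level in the graft did not differ past the threshold from the opposite artery (log2 difference -0.25, adjusted p = 0.419).

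Venous markers did not move as 1 group: 4 of 15 tested were lower in the graft, against 14.2% of all genes. Another 2 were higher, against 19.2% of all genes, and 9 did not pass, with a median of 0.42. Fitted to the 8 libraries alone, 7 were higher, and without the 2 mixture-like libraries 2 were lower. NR2F2, the nuclear receptor that sets venous identity, was at 2.6, 10.1, 3.13 and 4.5 FPKM in the grafts and 18.4, 11.9, 13.1 and 16.3 FPKM in the veins (log2 difference -1.52, SE 0.42, adjusted p = 0.01). Graft replicate 2, at 10.1 FPKM, came close to the lowest vein, at 11.9 FPKM, and the call was lost when the 2 mixture-like libraries were left out (-1.47, adjusted p = 0.0503). ACKR1, a chemokine-binding receptor of venules, was at 40.5, 31.1, 41.6 and 41.3 FPKM in the grafts and 104, 161, 122 and 118 FPKM in the veins (log2 difference -1.67, SE 0.26, adjusted p = 7.91e-05). The opposite artery held 3.13 ± 1.84 FPKM, so that the grafts stood between artery and vein. CPE, a carboxypeptidase listed with the venous genes, was at 22.3, 16.1, 18.6 and 14.7 FPKM in the grafts and 79.97, 97.2, 87.8 and 75.05 FPKM in the veins (log2 difference -2.19, SE 0.19, adjusted p = 2.06e-07). APLNR, the apelin receptor of venous and growing endothelium, went the other way, at 29.9, 29.98, 18.9 and 25.4 FPKM in grafts and 4.67, 1.46, 3.48 and 3.63 FPKM in veins (log2 difference 2.69, SE 0.28, adjusted p = 1.45e-06). NRP2, a co-receptor for semaphorins and growth factors, was also higher in the graft, by 1.38 (SE 0.21, adjusted p = 6.62e-05).

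Of 15 general endothelial markers 4 were higher and 3 lower, with a median of 0.10 that became -0.04 after quantile normalization, and their summed level was 741 to 906 FPKM in grafts and 988 to 1250 FPKM in veins. VWF, von Willebrand factor, carried the lower side, at 150.47, 116, 131 and 131 FPKM in the grafts, 417, 509.79, 405 and 431 FPKM in the veins (log2 difference -1.73, SE 0.22, adjusted p = 1.34e-05) and 13.1 ± 4.95 FPKM in the opposite artery. ENG, the co-receptor endoglin, was lower, with a log2 difference of -0.65 (SE 0.17, adjusted p = 0.00693). CLDN5, the tight junction protein of endothelium, was higher, at 158, 132, 140.33 and 129 FPKM in the grafts and 37.1, 27.3, 36.8 and 31.4 FPKM in the veins (log2 difference 2.05, SE 0.42, adjusted p = 0.00112). CDH5, VE-cadherin of the endothelial junction, was at 74.6, 87.8, 70.7 and 82.4 FPKM and 32.97, 36.6, 31.5 and 33.4 FPKM (log2 difference 1.20, SE 0.24, adjusted p = 0.000915). KDR, the main receptor for VEGF, was at 15.9, 19.3, 9.6 and 14.8 FPKM and 4.75, 1.75, 3.81 and 3.79 FPKM (log2 difference 1.82, SE 0.29, adjusted p = 0.000125). Groups were apart for each of these 5 genes, so the endothelial list held genes of both directions in the same libraries. Over the 15 genes all grafts lay above all veins for 4 and below them for 3, against 19.6% and 14.7% of all genes. Of 4 lymphatic markers tested (median 1.43, with all 4 at 1.22 or more), PDPN, podoplanin, passed as higher (log2 difference 1.52, SE 0.31, adjusted p = 0.000924). With the 8 libraries fitted alone 3 passed, and 2 without graft replicate 3 or vein replicate 1. Of 5 genes of valves and shear stress 2 were higher, KLF4 and the stretch channel PIEZO2, at 3.92, 4.09, 3 and 3.75 FPKM in the grafts and 1.23, 1.11, 1.09 and 1.05 FPKM in the veins (log2 difference 1.14, SE 0.11, adjusted p = 6.01e-07). Summed over the 5 genes, levels were 76.1 to 222.5 FPKM in grafts, 39.0 to 49.3 FPKM in veins and 78.4 to 102.6 FPKM in the opposite arteries.

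Notch pathway genes were higher for 6 of 12 and lower for 1 (median 0.60), with 3 higher when the 2 mixture-like libraries were left out. HEYL, a Notch target of smooth muscle, was at 24.9, 21.98, 13.04 and 18.9 FPKM in the grafts and 6.63, 4.42, 5.58 and 6.2 FPKM in the veins (log2 difference 1.60, SE 0.19, adjusted p = 6.61e-06). JAG1, the ligand that acts between endothelium and smooth muscle, was at 39.7, 59.9, 44.01 and 49.7 and 20.1, 21.5, 20.4 and 23.2 FPKM (log2 difference 1.13, SE 0.24, adjusted p = 0.00121). DNER, a Notch-like surface protein, was the lower member, at 0.59, 0.19, 0.46 and 0.31 FPKM in the grafts and 1.36, 2.28, 1.5 and 1.35 FPKM in the veins (log2 difference -0.91, SE 0.15, adjusted p = 0.000113). Both groups were far below the opposite artery, which held 32.7 ± 6.45 FPKM.

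Of 32 transcription factors known to mark position in the body, 6 were higher and 9 lower (median -0.14), against 19.2% and 14.2% of all genes, so the higher share was near that of all genes. Counts were 4 higher and 10 lower after quantile normalization, and 4 higher and 6 lower without the 2 mixture-like libraries. TBX2, a T-box factor, was at 43.7, 34.5, 23.1 and 33.1 FPKM in the grafts and 4.43, 4.02, 3.79 and 4 FPKM in the veins (log2 difference 2.74, SE 0.19, adjusted p = 1.7e-08). The opposite artery held 24.3 ± 1.88 FPKM (log2 difference 0.42, adjusted p = 0.0877). SHOX2, a homeobox factor known from the sinus venosus and the heart's pacemaker region, was at 3.98, 7, 9.82 and 6.61 FPKM in the grafts and 60.2, 50.9, 54.5 and 53.3 FPKM in the veins (log2 difference -2.88, SE 0.27, adjusted p = 5.47e-07). The opposite artery was lower again, at 1.07 ± 0.9 FPKM, and the grafts lay above it (log2 difference 1.97, adjusted p = 1.84e-05). TBX15, a factor of limb and skin mesenchyme, was at 9.28, 8.13, 8.77 and 8.54 FPKM in the grafts and 20.2, 28.4, 21.4 and 21.4 FPKM in the veins (log2 difference -1.29, SE 0.11, adjusted p = 1.15e-07). The level in the opposite artery was 8.38 ± 0.93 FPKM (log2 difference 0.05, adjusted p = 0.757). MSX2, a homeobox factor downstream of BMP signals, was at 3.11, 2.97, 2.54 and 3.23 FPKM and 20.4, 10.01, 14.9 and 16.6 FPKM (log2 difference -2.02, SE 0.17, adjusted p = 1.36e-07), against 1.92 ± 0.39 FPKM in the opposite artery. FOXS1, a forkhead factor of vessel walls, was higher in graft than vein (log2 difference 0.90, SE 0.18, adjusted p = 0.000922) and highest in the opposite artery, at 34.4 ± 5.26 FPKM.

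Receptors for vasoactive agents and the enzymes of cyclic nucleotides were higher in the graft for 12 of 40 and lower for 4 (median 0.16, and -0.06 after quantile normalization), with 8 lower after scaling to TPM. Without the 2 mixture-like libraries 9 were higher and 3 lower. RGS5, a brake on G protein signalling of pericytes and arterial smooth muscle, was at 185, 196, 120.15 and 167 FPKM in the grafts and 18.7, 2.1, 12.2 and 13.6 FPKM in the veins (log2 difference 3.99, SE 0.43, adjusted p = 2.1e-06). Its level in the opposite artery was 2394 ± 418 FPKM, so the grafts were below artery (log2 difference -3.84, adjusted p = 1.71e-06) and above vein. P2RX1, the ATP-gated channel of arterial smooth muscle, showed the same order, with 31.9, 15.7, 15.3 and 20.8 FPKM in the grafts, 0.62, 0.55, 0.61 and 0.26 FPKM in the veins (log2 difference 3.81, SE 0.27, adjusted p = 2.45e-08) and 92.7 ± 19.4 FPKM in the opposite artery. At day 14 the grafts held 1.29 ± 1.07 FPKM of it. HTR1B, a serotonin receptor that constricts arteries, was at 9.63, 14.2, 17.7 and 15.7 FPKM in the grafts, 0.37, 0.24, 0.6 and 0.24 FPKM in the veins (log2 difference 3.47, SE 0.25, adjusted p = 2.45e-08) and 41.8 ± 12.7 FPKM in the opposite artery. These 3 genes had values between artery and vein, with no overlap between graft and vein. Over the 40 genes all grafts lay above all veins for 11 and below them for 7, against 19.6% and 14.7% of all genes. On the lower side, ADRA2B, an adrenergic receptor, was at 0.16, 0.23, 0.26 and 0.06 FPKM in the grafts and 2, 5.67, 3.99 and 3.48 FPKM in the veins (log2 difference -1.97, SE 0.20, adjusted p = 1.03e-06). PDE5A, which breaks down cyclic GMP, was at 0.37, 0.8, 0.86 and 0.66 and 3.98, 1.21, 2.09 and 2.39 FPKM (log2 difference -0.98, SE 0.20, adjusted p = 0.000995). GUCY1A2, a subunit of the receptor for nitric oxide, was 1 of the 15 largest falls, at 2.64, 0.84, 0.79 and 1.88 FPKM in grafts and 27.6, 20.5, 19.9 and 23.98 FPKM in veins (log2 difference -3.30, SE 0.23, adjusted p = 2.25e-08), and was at 0.14 ± 0.03 FPKM in the opposite artery.

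**Figure D3:**
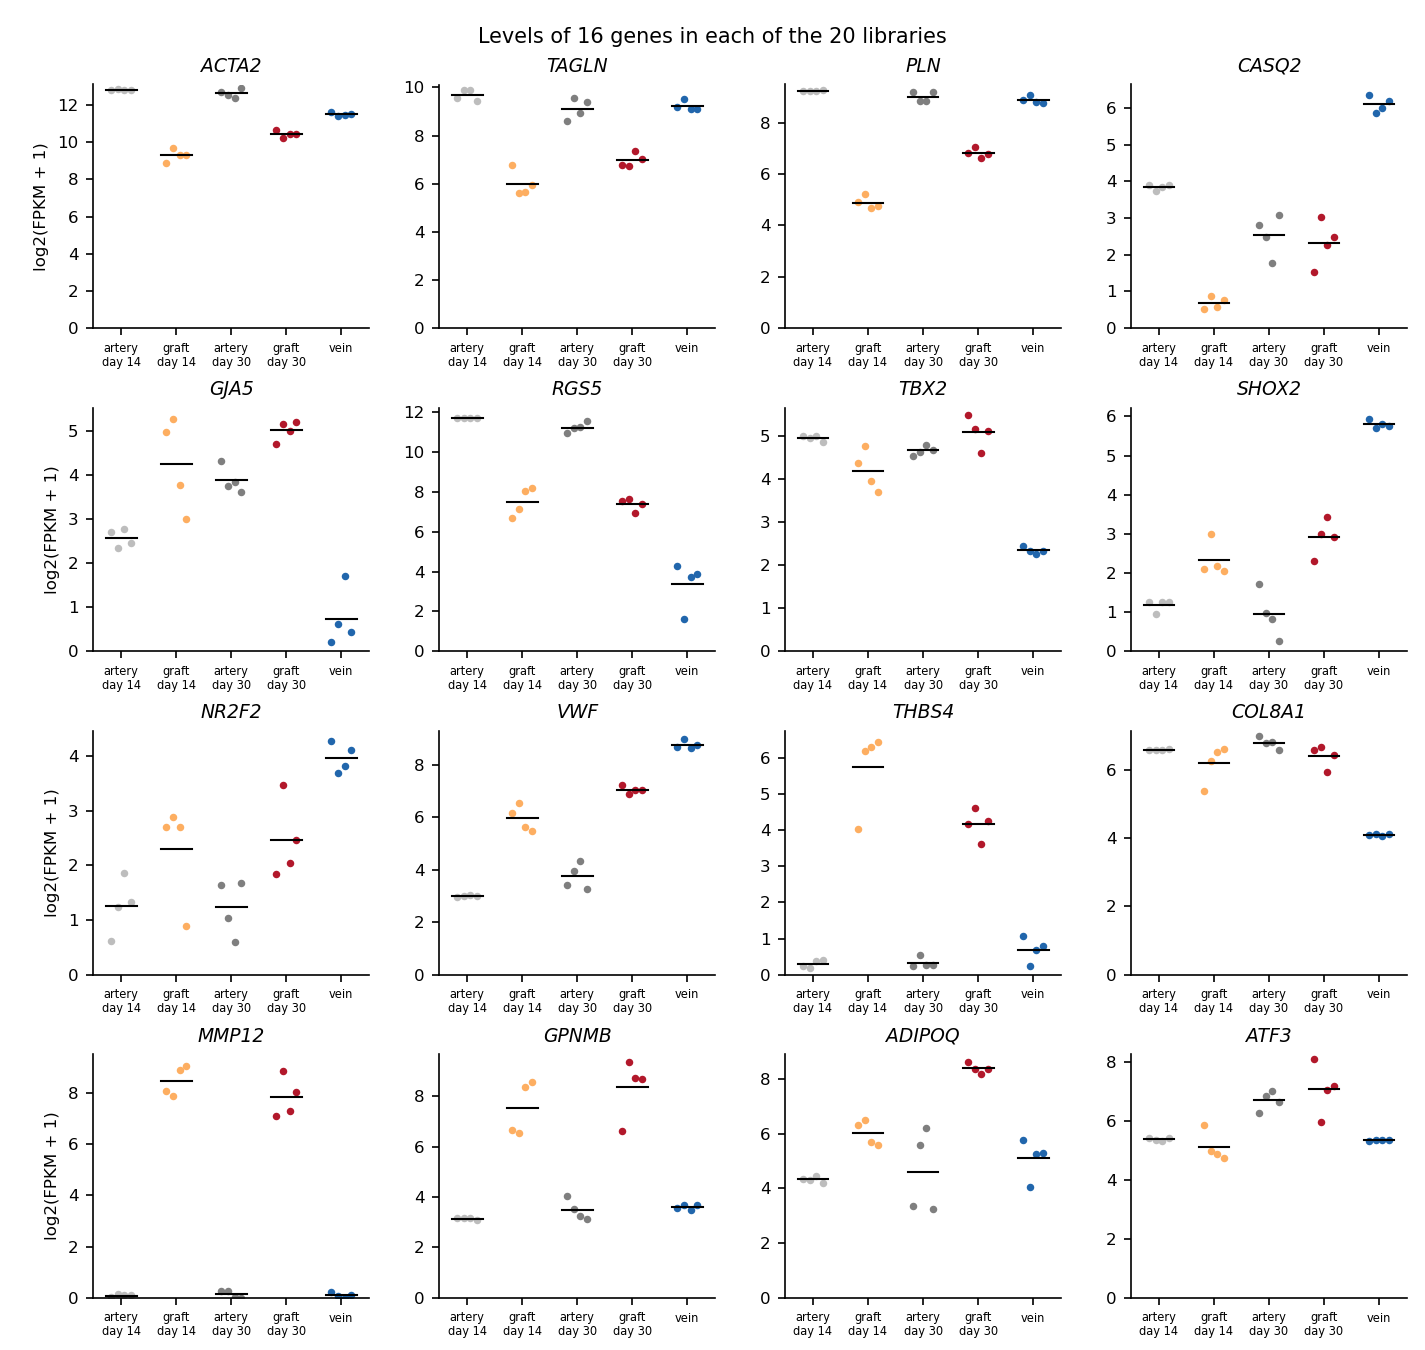
Each panel shows 1 gene in all 20 libraries, as log2(FPKM + 1) on the y axis, by group on the x axis (opposite artery and graft of day 14, opposite artery and graft of day 30, vein), with a bar at the group mean. Day 30 grafts and veins did not overlap for any of the 16 genes shown, which were picked for display. Of all genes tested 34.3% did not overlap. The grafts stood at or near the opposite artery for TBX2 and COL8A1, between artery and vein for RGS5 and VWF, and below both for ACTA2, TAGLN and PLN.

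Of 12 genes tested for collagens and the enzymes that process them, 8 were higher in the graft and none lower (median 0.84). The list holds fibrillar chains and also collagens of other kinds. COL8A1, a short-chain collagen of arterial smooth muscle and endothelium, was at 94.2, 100.04, 59.8 and 85.3 FPKM in the grafts and 16.1, 16.3, 15.6 and 16.2 FPKM in the veins (log2 difference 2.31, SE 0.20, adjusted p = 2.34e-07). The opposite artery held 109 ± 12.8 FPKM and did not differ from the graft past the threshold (log2 difference -0.38, adjusted p = 0.156). COL11A1, a fibrillar collagen best known from cartilage, was at 7.77, 10.7, 4.81 and 7.85 FPKM in the grafts, 0.07, 0.1, 0.14 and 0.1 FPKM in the veins (log2 difference 2.95, SE 0.34, adjusted p = 4.01e-06) and 0.28 ± 0.04 FPKM in the opposite artery. COL6A2 and PLOD1, a chain of the beaded collagen VI and a lysyl hydroxylase, were higher by 0.83 (SE 0.10, adjusted p = 5.89e-06) and 0.84 (SE 0.11, adjusted p = 1.87e-05). COL1A1, the main chain of type I collagen, was at 88.5, 73.4, 110.03 and 86.9 FPKM in the grafts and 51.4, 64.9, 49.9 and 44.5 FPKM in the veins (log2 difference 0.76, SE 0.21, adjusted p = 0.0105). It did not pass when the 2 mixture-like libraries were left out (0.69, adjusted p = 0.0611).

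Elastic fibre genes were higher for 6 of 13 and lower for 1 (median 0.59). FBN1, fibrillin-1, the scaffold on which elastin is laid, was at 44.9, 46.8, 46.2 and 43.3 FPKM in the grafts and 24.4, 33.5, 24.2 and 25.2 FPKM in the veins (log2 difference 0.75, SE 0.10, adjusted p = 2.09e-05). EMILIN1, a protein at the elastin surface, was at 35.7, 31.7, 30.8 and 30.5 and 14.9, 15.8, 13.9 and 15.6 FPKM (log2 difference 1.05, SE 0.11, adjusted p = 2.24e-06). LOXL1, which crosslinks elastin, was at 43.5, 49.4, 46.3 and 50.4 and 30.2, 34.5, 29.6 and 29.9 FPKM (log2 difference 0.59, SE 0.08, adjusted p = 1.45e-05). MFAP4, a microfibril protein, was lower in the graft, at 575, 384, 424 and 448 FPKM against 849, 1047, 848 and 849 FPKM (log2 difference -0.98, SE 0.18, adjusted p = 0.000421). In the opposite artery it stood at 1772 ± 167 FPKM. In the basement membrane list 5 of 12 were higher and 1 lower (median 0.41). COL4A2, a chain of the network collagen IV, was at 154, 114, 122 and 131 FPKM in the grafts and 52.3, 33.1, 38.6 and 47.2 FPKM in the veins (log2 difference 1.60, SE 0.14, adjusted p = 1.77e-07). LAMA3, a laminin chain best known from epithelia, was at 4.89, 4.74, 5.17 and 5.28 FPKM and 0.78, 1.19, 0.58 and 0.77 FPKM (log2 difference 1.73, SE 0.13, adjusted p = 3.7e-08), and HSPG2, perlecan, differed by 1.01 (SE 0.17, adjusted p = 0.00018). LAMA2, the laminin chain of muscle and nerve, was the lower one (log2 difference -0.75, SE 0.15, adjusted p = 0.000758).

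Of 17 proteoglycans 3 were higher, near the share of all genes, and 5 lower (median -0.22), and without graft replicate 3 there were 5 higher. The small leucine-rich members KERA, keratocan, and EPYC, epiphycan, had some of the larger falls. KERA was at 7.66, 4.84, 3.75 and 5.16 FPKM in the grafts and 44.9, 29.8, 36.5 and 36.5 FPKM in the veins (log2 difference -2.60, SE 0.20, adjusted p = 5.38e-08). EPYC was at 69.7, 15.6, 56.3 and 48.98 FPKM and 297, 313, 283 and 299 FPKM (log2 difference -2.80, SE 0.44, adjusted p = 0.000107). For EPYC the opposite artery stood at 268 ± 146 FPKM, and for KERA it was below the graft, at 1.82 ± 0.75 FPKM. LUM, lumican, a relative of both, was higher in the graft, at 106, 214, 154 and 106 FPKM against 62.1, 67.7, 58.8 and 29.9 FPKM (log2 difference 1.39, SE 0.36, adjusted p = 0.0067). PRG4, lubricin, was also higher (log2 difference 1.94, SE 0.37, adjusted p = 0.000572).

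Matricellular genes, whose secreted products bind matrix and cells without being structural, were higher for 5 of 17 and lower for 4 (median 0.45). THBS4 was at 16.9, 23.6, 11.3 and 18.3 FPKM in the grafts and 1.09, 0.17, 0.62 and 0.72 FPKM in the veins (log2 difference 3.48, SE 0.38, adjusted p = 2.65e-06). Every graft lay far above every vein. Opposite arteries were low as well, at 0.26 ± 0.13 FPKM (log2 difference 3.84, adjusted p = 4.51e-07), and day 14 grafts held 62.8 ± 32.1 FPKM. THBS1 and THBS3, of the same family, did not pass: THBS1 was at 238, 121, 328 and 239 FPKM in the grafts and 161, 116, 148 and 158 FPKM in the veins (log2 difference 0.59, SE 0.63, adjusted p = 0.509). THBS3 was at 16.98, 18.6, 17.3 and 21.02 and 14.8, 15.7, 13.3 and 14.4 FPKM (log2 difference 0.32, SE 0.13, adjusted p = 0.0698). THBS3 did pass when the fit used the 8 libraries alone (adjusted p = 0.036). FBLN7, an adhesive fibulin, was at 36.5, 69.2, 32.2 and 46.5 FPKM in the grafts and 4.64, 1.2, 2.42 and 3.36 FPKM in the veins (log2 difference 3.61, SE 0.26, adjusted p = 2.63e-08). POSTN, periostin, of healing connective tissue, was at 49.7, 63.7, 35.98 and 51.3 FPKM and 6.45, 1.75, 7.04 and 5.77 FPKM (log2 difference 3.12, SE 0.41, adjusted p = 1.62e-05). TNC, tenascin-C, was at 2.89, 3.19, 1.73 and 2.49 FPKM and 0.18, 0, 0.07 and 0.09 FPKM (log2 difference 1.70, SE 0.19, adjusted p = 3.35e-06). None of these 3, picked for small adjusted p, overlapped between graft and vein. Over the 17 genes all grafts lay above all veins for 6 and below them for 4, against 19.6% and 14.7% of all genes. SMOC2, a calcium-binding matrix protein, and ECM1 were lower, with log2 differences of -0.71 (SE 0.16, adjusted p = 0.00214) and -0.46 (SE 0.12, adjusted p = 0.00538).

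Proteases that cut matrix, with their inhibitors, were higher for 19 of 28 and lower for 1 (median 0.98), and 16 were higher without the 2 mixture-like libraries. MMP12, the elastase of macrophages, had the largest difference among the named genes that the nucleus encodes, at 134, 456, 156 and 263 FPKM in the grafts and 0.17, 0.06, 0 and 0.07 FPKM in the veins (log2 difference 7.71, SE 0.30, adjusted p = 1.53e-11). The opposite artery was at 0 to 0.21 FPKM, and day 14 grafts at 374 ± 148 FPKM. MMP9, a gelatinase, was at 39.3, 76.1, 60.4 and 62.1 FPKM in the grafts and 0.16, 0.08, 0.76 and 0.32 FPKM in the veins (log2 difference 5.49, SE 0.36, adjusted p = 1.13e-08). MMP14, the protease at the cell surface that activates others, was at 85.6, 129, 79.1 and 94.4 FPKM and 25.8, 26.2, 22.4 and 21.3 FPKM (log2 difference 1.96, SE 0.14, adjusted p = 3.19e-08). ADAM12, a metalloprotease of growing mesenchyme, was at 10.9, 18.4, 7.64 and 13.2 FPKM and 1.08, 0.84, 0.94 and 0.82 FPKM (log2 difference 2.76, SE 0.21, adjusted p = 3.54e-08). CTSS, the cathepsin of antigen-presenting cells, was at 54.2, 186, 141 and 139 FPKM and 20.5, 11.7, 18.5 and 17.7 FPKM (log2 difference 2.75, SE 0.35, adjusted p = 1.09e-05). The inhibitor TIMP3 was the lower member, at 82.6, 55.1, 46.1 and 60.9 FPKM in the grafts and 144, 87.6, 107 and 115 FPKM in the veins (log2 difference -0.89, SE 0.23, adjusted p = 0.00683). It was at 151 ± 18.8 FPKM in the opposite artery.

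Macrophage markers were higher for 9 of 15 and lower for none (median 1.40), and 8 were higher without the 2 mixture-like libraries. GPNMB, a membrane protein of lipid-laden macrophages, was at 98.03, 652, 421 and 414 FPKM in the grafts and 10.7, 11.7, 10.1 and 11.8 FPKM in the veins (log2 difference 4.76, SE 0.49, adjusted p = 1.29e-06). FABP5, a fatty acid carrier, was at 76.1, 137, 88.5 and 109 FPKM and 4.66, 5.92, 5.75 and 6.33 FPKM (log2 difference 3.93, SE 0.30, adjusted p = 4.8e-08). CD68, a lysosomal glycoprotein of macrophages, was at 10.5, 112, 111 and 82.7 FPKM in the grafts and listed at 0 in all 4 veins and all 4 opposite arteries. The other 14 markers were not at 0 in all veins, and 6 of the 15 did not pass. The median was 2.11 without graft replicate 3. Graft replicate 1 was the lowest of the grafts for GPNMB, FABP5 and CD68, and graft replicate 2 the highest.

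Lysosomal and lipid genes went with them, 15 of 24 higher and none lower (median 1.04), with 11 higher without the 2 mixture-like libraries and 9 after scaling to TPM. ATP6V0D2, a subunit of the proton pump in macrophages and osteoclasts, was at 33.2, 303, 142 and 179 FPKM in the grafts and 0, 0, 0.1 and 0.03 FPKM in the veins (log2 difference 6.95, SE 0.50, adjusted p = 2.45e-08). GUSB, a lysosomal glucuronidase, was at 20.2, 90.7, 54.5 and 53.5 FPKM and 0, 0, 0.68 and 4.89 FPKM (log2 difference 4.80, SE 0.81, adjusted p = 0.000192). Its values of 0 in veins may be failed estimates, in which case the difference is overstated. With genes listed at 0 left out, 13 of 22 genes of the list were higher. SCARB1, the receptor for high-density lipoprotein, was at 63.1, 53.6, 62.1 and 59.5 FPKM and 15, 7.85, 12.4 and 12.4 FPKM (log2 difference 2.26, SE 0.23, adjusted p = 1.38e-06), without the spread between grafts seen in ATP6V0D2. GRN, the progranulin precursor, and HEXA, a hexosaminidase, were higher by 1.83 (SE 0.24, adjusted p = 1.72e-05) and 1.69 (SE 0.25, adjusted p = 6.57e-05). Among genes of heme and iron 5 of 10 were higher and 2 lower (median 1.00). FTL, the ferritin light chain that stores iron, was at 1716, 4288, 4509 and 3762 FPKM in the grafts and 986, 1006, 1028 and 979.65 FPKM in the veins (log2 difference 1.74, SE 0.25, adjusted p = 4.18e-05). TFRC, the transferrin receptor, was at 21.2, 49.6, 46.02 and 42 FPKM and 8.21, 6.58, 7.26 and 7.1 FPKM (log2 difference 2.23, SE 0.38, adjusted p = 0.000205). SLC40A1, ferroportin, which exports iron from cells, was lower, at 4.83, 9.23, 4.76 and 5.16 against 9.7, 11.7, 11.99 and 9.27 FPKM (log2 difference -0.77, SE 0.20, adjusted p = 0.00586), as was the iron reductase CYBRD1 (log2 difference -0.71, SE 0.17, adjusted p = 0.00346). The globin HBB2, a measure of blood in the sample, did not pass: it was at 3529, 4687, 1941 and 3476 FPKM in the grafts and 2592, 4265, 21150.0 and 8226 FPKM in the veins (log2 difference -1.03, SE 0.70, adjusted p = 0.287). Vein replicate 3 was far above the rest, and neither of the 2 erythroid genes tested passed.

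**Figure D4:**
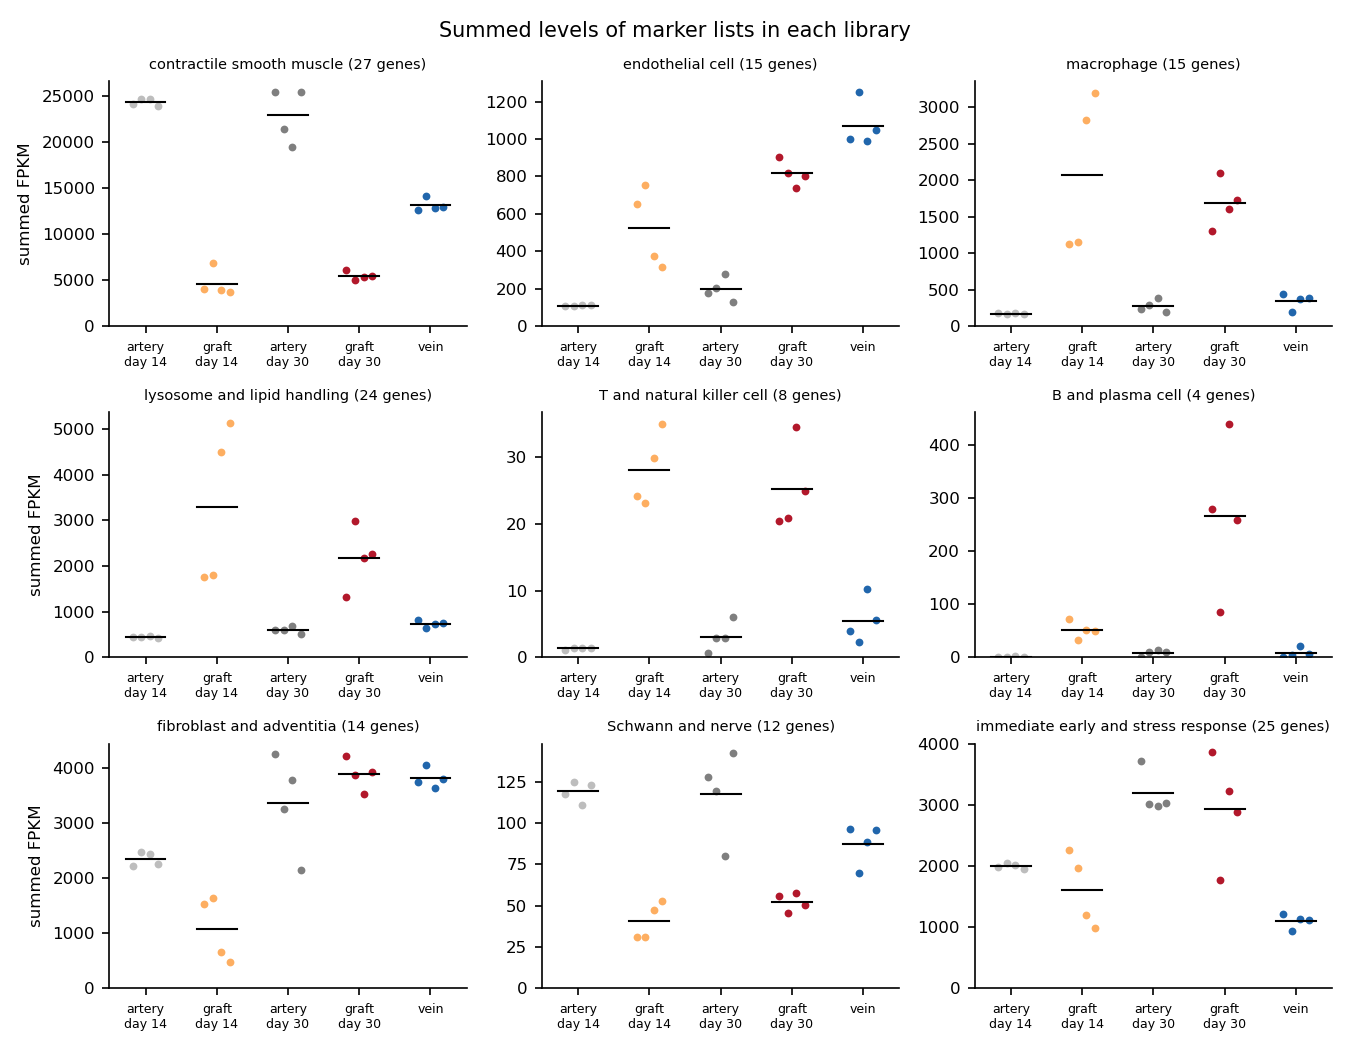
FPKM summed over the tested genes of 9 marker lists, on the y axis, in each of the 20 libraries by group, with a bar at the group mean. Day 30 grafts held 5039 to 6101 FPKM of contractile genes against 12599 to 14095 FPKM in veins, and 1303 to 2097 FPKM of macrophage genes against 199 to 443 FPKM.

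Of the T and natural killer cell markers 7 of 8 tested were higher and none lower (median 1.13), their summed level being 20.5 to 34.5 FPKM in grafts and 2.29 to 10.2 FPKM in veins. IL7R, the interleukin-7 receptor, was at 4.4, 9.81, 4.95 and 6.62 FPKM in the grafts and 0.5, 0, 1.02 and 0.33 FPKM in the veins (log2 difference 2.34, SE 0.34, adjusted p = 4.41e-05). CD4, the co-receptor of helper T cells, was at 2.01, 1.57, 4.99 and 3.13 and 0.25, 0.36, 1.18 and 0.6 FPKM (log2 difference 1.25, SE 0.24, adjusted p = 0.000604). Of 4 B and plasma cell genes 3 were higher (median 2.09), and their summed level was 84.7 to 439.6 FPKM in grafts and 0.79 to 21.1 FPKM in veins. JCHAIN, which joins secreted antibodies, was at 269.53, 80.2, 413 and 243 FPKM in the grafts and 0, 5.05, 17.99 and 4.66 FPKM in the veins (log2 difference 5.43, SE 0.72, adjusted p = 1.85e-05). MZB1, a chaperone of antibody-secreting cells, was at 6.12, 2.2, 19.7 and 11.6 FPKM and 0.35, 0, 1.52 and 1.22 FPKM (log2 difference 2.40, SE 0.45, adjusted p = 0.000484). DERL3, of the same cells' endoplasmic reticulum, was at 3.22, 1.53, 4.43 and 2.73 and 0, 0, 0.27 and 0.24 FPKM (log2 difference 1.78, SE 0.18, adjusted p = 1.37e-06). For all 3, replicate 3 was the highest graft and replicate 2 the lowest. Of 7 neutrophil and mast cell markers 2 were higher, the mast cell receptor KIT (log2 difference 0.62, SE 0.14, adjusted p = 0.00264) and the formyl peptide receptor FPR1 (log2 difference 1.09, SE 0.34, adjusted p = 0.0187), and the median was -0.02. Among all genes 19.2% were higher. FPR1 did not pass without vein replicate 4 (adjusted p = 0.059), without the 2 mixture-like libraries (0.0861) or after scaling to TPM (0.0637).

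Cytokine and chemokine genes were higher for 14 of 19 and lower for none (median 1.63), and 11 were higher without the 2 mixture-like libraries. IL6 was at 161, 2.11, 31.1 and 57.9 FPKM in the grafts and 0.06, 0, 0.11 and 0 FPKM in the veins (log2 difference 4.91, SE 1.37, adjusted p = 0.0103). The grafts ranged widely, and the call was lost when the 2 mixture-like libraries were left out (4.58, adjusted p = 0.0579). The opposite artery ran from 0.13 to 225 FPKM. OSM, oncostatin M of the same family, was steadier, at 7.2, 4.57, 7.26 and 5.62 FPKM in grafts and 0.17, 0.13, 0.42 and 0.17 FPKM in veins (log2 difference 2.54, SE 0.42, adjusted p = 0.000183). So was IL10, which restrains inflammation, at 4.76, 2.67, 2.33 and 2.88 and 0.66, 0.04, 0.53 and 0.35 FPKM (log2 difference 1.56, SE 0.19, adjusted p = 8.17e-06). IL1RN, the antagonist of the interleukin-1 receptor, was at 8.1, 3.84, 2.24 and 2.35 FPKM in the grafts and listed at 0 in all veins. TNFSF13B, the survival factor of B cells, was at 4.93, 4.06, 6 and 5.79 FPKM and 1.92, 0.62, 1.34 and 1.59 FPKM (log2 difference 1.41, SE 0.22, adjusted p = 8.33e-05). Interferon and antigen presentation genes were higher for 8 of 16 and lower for 1 (median 0.96), and for 5 without the 2 mixture-like libraries. GBP1, a guanylate-binding protein induced by interferon, was at 9.74, 5.83, 17.9 and 13.8 FPKM in the grafts and 1.73, 1.46, 1.48 and 0.84 FPKM in the veins (log2 difference 2.35, SE 0.49, adjusted p = 0.00118). RLA-DR-ALPHA, a class II antigen-presenting chain, was at 318, 384, 544 and 417 FPKM in grafts, 179.51, 104, 194 and 166 FPKM in veins (log2 difference 1.38, SE 0.32, adjusted p = 0.00292) and 12.5 ± 6.05 FPKM in the opposite artery. The lower one was CD74, the chain that travels with class II molecules, listed at 0 in all grafts and at 0, 25.2, 19.04 and 7.6 FPKM in the veins. Its adjusted p was 0.0412, above 0.05 in 9 of the alternatives and up to 0.125 among them. CD74 was also listed at 0 in all opposite arteries of day 14, and such a 0 may be a failed estimate.

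Cell division genes were higher for 18 of 24 and lower for none (median 0.99), with 16 higher without the 2 mixture-like libraries and a summed level of 137 to 192 FPKM in grafts and 54.1 to 77.8 FPKM in veins. MCM4 and MCM6, of the helicase that opens DNA for replication, were at 5.82, 6.12, 4.22 and 4.82 and 10.9, 11.98, 7.94 and 10.4 FPKM in the grafts and 1.71, 1.69, 1.38 and 1.57 and 4.2, 3.53, 4.87 and 3.67 FPKM in the veins. The log2 differences were 1.26 (SE 0.16, adjusted p = 1.14e-05) for MCM4 and 1.15 (SE 0.18, adjusted p = 7.85e-05) for MCM6. TYMS, which makes thymidylate, was at 11.01, 9.76, 7.97 and 10.9 FPKM in the grafts and 4.31, 2.84, 3.43 and 4.88 FPKM in the veins (log2 difference 1.18, SE 0.15, adjusted p = 1.48e-05). PCNA, the clamp of the replication fork, was higher by 0.67 (SE 0.10, adjusted p = 9.67e-05). All grafts exceeded all veins for each of these 4 genes, which were picked for small adjusted p. The same held for 18 of the 24 genes of the list, against 19.6% of all genes.

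The series title names apoptosis of vascular smooth muscle cells. Of 21 genes of the death pathways 8 were higher and none lower (median 0.36), against 19.2% and 14.2% of all genes. In this list 5 were higher without the 2 mixture-like libraries, 4 after scaling to TPM, and 2 were lower after quantile normalization. BCL2A1, a survival factor of leukocytes and endothelium, was at 26.4, 38.6, 35.8 and 35.1 FPKM in the grafts and 3.22, 2.04, 3.54 and 3.55 FPKM in the veins (log2 difference 3.10, SE 0.41, adjusted p = 1.62e-05). BAX, which opens the mitochondrial membrane in dying cells, was at 15.3, 34.1, 25.3 and 32.5 FPKM and 9.05, 11.02, 9.73 and 12.4 FPKM (log2 difference 1.22, SE 0.22, adjusted p = 0.000414). It did not pass when the highest transcript stood for the gene (adjusted p = 0.0739). BAK1, its partner, was at 15.99, 26.4, 22.7 and 17.1 and 8.81, 11.1, 9.19 and 7.02 FPKM (log2 difference 1.09, SE 0.20, adjusted p = 0.000496). The higher genes thus included ones that promote death and one that prevents it. BCL2, the founding survival factor, was at 0.83, 2.07, 1.17 and 0.82 FPKM in the grafts and 3.12, 1.89, 1.84 and 1.78 FPKM in the veins and did not pass (log2 difference -0.52, SE 0.25, adjusted p = 0.124), except after quantile normalization (adjusted p = 0.014).

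Immediate early and stress genes, which cells switch on within minutes of a stimulus, were higher for 18 of 25 and lower for 1 (median 1.58), with 13 higher without the 2 mixture-like libraries. The median difference of the list was 1.52 between opposite artery and vein and 0.37 between graft and opposite artery. Its summed level was 1773 to 3859 FPKM in grafts, 2979 to 3725 FPKM in opposite arteries and 944 to 1212 FPKM in veins. ZFP36, which destroys messages of cytokines, was at 622, 165, 321 and 333 FPKM in the grafts, 26.3, 45.2, 41.1 and 34.3 FPKM in the veins (log2 difference 3.13, SE 0.44, adjusted p = 3.15e-05) and 345 ± 154 FPKM in the opposite artery, where it did not differ from the graft past the threshold (log2 difference 0.01, adjusted p = 0.987). ATF3, a stress factor, was at 275, 61.2, 133 and 144 FPKM in the grafts and 39.3, 39.7, 40.3 and 39.95 FPKM in the veins (log2 difference 1.73, SE 0.32, adjusted p = 0.00045). EGR3, an early growth response factor, was at 19.4, 3.83, 11.03 and 10.3 FPKM and 0.66, 1.87, 1.14 and 1.18 FPKM (log2 difference 2.31, SE 0.34, adjusted p = 4.88e-05). In all 3, replicate 1 was the highest graft and replicate 2 the lowest, and the opposite arteries also exceeded the veins, by up to 3.12 on the log2 scale. HSPH1, a heat shock protein, was lower in the graft (log2 difference -0.66, SE 0.18, adjusted p = 0.00794), though the groups overlapped.

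The 4 grafts did not differ from each other in 1 direction only. Replicate 1 lay above the graft mean for immediate early genes (median deviation 0.65 on the log2 scale over 25 genes), adventitial genes (0.47 over 14) and contractile genes (0.24 over 27), and below it for macrophage genes (-0.38 over 15). Replicate 2 had the opposite pattern, at -0.65, -0.39, -0.17 and 0.31 for the same lists. Replicate 3 stood out by lymphocyte genes, 0.60 for the T and natural killer list and 0.73 for the B and plasma cell list, where replicate 2 was at -0.30 and -1.01. Replicate 4, the mixture-like library, deviated by 0.10 or less in the lists plotted. Among the veins, replicate 2 was lower for adipocyte genes (-1.07 over 9) and replicate 3 higher for T and natural killer genes (0.49 over 8).

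**Figure D5:**
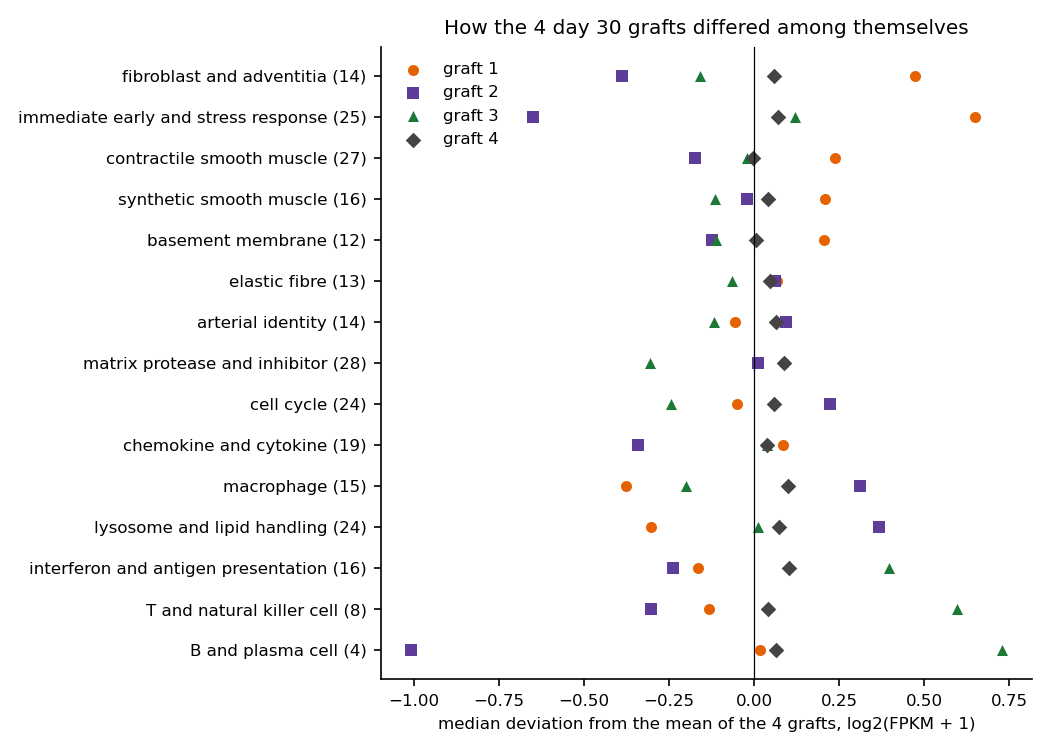
For 15 lists, each marker gives the median deviation of the list's genes in 1 day 30 graft from the mean of the 4 grafts, log2(FPKM + 1), on the x axis. Graft 1 was highest for immediate early and adventitial genes (0.65 and 0.47) and lowest for macrophage genes (-0.38), graft 2 the reverse, and graft 3 was highest for T and B cell genes (0.60 and 0.73).

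In the TGF-beta and BMP family 7 of 35 were higher, near the 19.2% of all genes, and 11 lower (median 0.13, and -0.06 after quantile normalization), and 4 were higher without the 2 mixture-like libraries. BMP6, a ligand of endothelium and other cells, was at 4.36, 3.59, 4.45 and 3.41 FPKM in the grafts and 24.2, 31.9, 22.4 and 24.9 FPKM in the veins (log2 difference -2.43, SE 0.18, adjusted p = 3.59e-08). BMP5, a close relative, was at 4.88, 3.73, 2.38 and 4.33 FPKM and 0.06, 0, 0.03 and 0 FPKM (log2 difference 2.21, SE 0.24, adjusted p = 2.42e-06). FST, follistatin, which traps activins, was at 4.14, 3.58, 3.33 and 2.56 FPKM and 37.96, 11.5, 30.5 and 29.6 FPKM (log2 difference -2.58, SE 0.34, adjusted p = 1.79e-05). The receptors also diverged, BMPR1A being lower (log2 difference -0.97, SE 0.12, adjusted p = 7.78e-06) and TGFBR2 higher (log2 difference 0.85, SE 0.13, adjusted p = 7.99e-05). For BMP6 and FST the opposite artery did not differ from the graft past the threshold (adjusted p = 0.183 and 0.575). In the Wnt list 4 of 21 were higher, again near the share of all genes, and 6 lower (median -0.18). NKD1, an antagonist that Wnt signals induce, was at 4.49, 6.41, 3.31 and 5.28 FPKM in the grafts and 33.7, 29.9, 27.6 and 28.8 FPKM in the veins (log2 difference -2.42, SE 0.26, adjusted p = 1.97e-06). Its level in the opposite artery was 32.4 ± 4.08 FPKM. AXIN2, another such target, was lower as well (log2 difference -0.77, SE 0.11, adjusted p = 4.9e-05). LEF1, a factor through which Wnt signals act, was higher, at 1.41, 2.44, 2.19 and 2.31 against 0.22, 0.39, 0.52 and 0.1 FPKM (log2 difference 1.24, SE 0.17, adjusted p = 2.04e-05), and so was the ligand WNT2 (log2 difference 0.98, SE 0.16, adjusted p = 0.000173).

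Cells of the outer layer and of nerves were compared through their markers. In the fibroblast and adventitia list 6 of 14 were lower and 2 higher (median -0.70), with 4 lower and 1 higher without the 2 mixture-like libraries. PI16, a marker of adventitial fibroblasts, was higher, at 279, 219, 220.26 and 289 FPKM in the grafts and 60.3, 29.6, 46.4 and 43.7 FPKM in the veins (log2 difference 2.49, SE 0.58, adjusted p = 0.003). It stood at 469.55 ± 95.04 FPKM in the opposite artery and 32.4 ± 31.1 FPKM in day 14 grafts. DPP4, a peptidase of the same cells, was lower, at 26.3, 10.2, 12.5 and 17.6 FPKM against 105, 153, 117 and 121 FPKM (log2 difference -2.89, SE 0.50, adjusted p = 0.000245). ALDH1A1, which makes retinoic acid, was at 27.6, 16.7, 28.4 and 24.1 FPKM and 114, 171, 125 and 139 FPKM (log2 difference -2.47, SE 0.16, adjusted p = 1.01e-08). CYP1B1, a cytochrome, and SFRP4, a Wnt antagonist, were lower, with log2 differences of -1.59 (SE 0.21, adjusted p = 1.55e-05) and -1.25 (SE 0.28, adjusted p = 0.00202). HAS2, which makes hyaluronan, was higher (log2 difference 1.33, SE 0.45, adjusted p = 0.0305), with graft replicate 1 highest at 23.2 FPKM. It did not pass without graft replicate 1 (0.97, adjusted p = 0.11) or 4 (adjusted p = 0.0691), without vein replicate 1 (0.0535) or 2 (0.0759), or without the 2 mixture-like libraries (0.0985).

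Schwann cell and nerve markers were lower for 6 of 12 and higher for 1 (median -0.38), with 4 lower without the 2 mixture-like libraries. SCN7A, a sodium channel of Schwann cells, was at 0.01, 0, 0.07 and 0.04 FPKM in the grafts and 4.64, 4.13, 2.66 and 3.1 FPKM in the veins (log2 difference -2.15, SE 0.21, adjusted p = 7.25e-07). ERBB3, their neuregulin receptor, was at 0.31, 0.19, 0.3 and 0.29 and 2.64, 1.48, 1.85 and 1.96 FPKM (log2 difference -1.22, SE 0.17, adjusted p = 3.33e-05). Both were at or below 0.31 FPKM in every graft. MBP, myelin basic protein, was the exception, at 3.87, 15.4, 8.5 and 10.4 FPKM in the grafts and 2.67, 1.25, 1.5 and 1.7 FPKM in the veins (log2 difference 1.82, SE 0.46, adjusted p = 0.00555). Replicate 2 was the highest graft and replicate 1 the lowest, as for GPNMB and CD68.

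Several of the 15 largest rises need their listed values read as such. The mitochondrial transcripts CYTB, COX2, ND3, ND5 and ND4 were at 411 to 13537 FPKM in the grafts but 0 to 3.87 FPKM in the veins. ATP6 was at 9305, 7099, 3.07 and 5608 FPKM in the grafts and 0.21, 1.58, 1.46 and 2.26 FPKM in the veins. In the opposite arteries CYTB ran from 0 to 2939.5 FPKM. RPL5, a protein of every ribosome, was at 80.8, 110.18, 127 and 127 FPKM in the grafts and listed at 0 in all veins. Every cell uses these genes, so only their listed values are given. Among the remaining largest falls, MT3, a metal-binding protein, had 0, 0, 7.92 and 0 FPKM in the grafts against 62.1, 34.9, 30.3 and 49.03 FPKM in the veins. COX7A1, the muscle form of a cytochrome oxidase subunit, was at 2.03, 1.18, 3.01 and 0.72 FPKM in the grafts, 40.7, 51.9, 46.3 and 28.1 FPKM in the veins (log2 difference -4.01, SE 0.46, adjusted p = 4.03e-06) and 8.73 ± 6.72 FPKM in the opposite artery. PTN, pleiotrophin, a heparin-binding growth factor, was at 7.94, 18.98, 7.64 and 11.7 FPKM and 177, 89.1, 153 and 152 FPKM (log2 difference -3.56, SE 0.30, adjusted p = 1.66e-07). It stood at 13.6 ± 7.08 FPKM in the opposite artery. SHISA3, a membrane protein that holds back Wnt and FGF receptors, was at 1.15, 0.6, 1.13 and 1.03 FPKM and 19.4, 20.4, 16.4 and 17.8 FPKM (log2 difference -3.31, SE 0.18, adjusted p = 1.36e-09). SLIT2, a guidance signal for axons and endothelium, was at 3.45, 1.42, 1.75 and 2.48 FPKM and 30.1, 29.6, 26.9 and 27.9 FPKM (log2 difference -3.22, SE 0.29, adjusted p = 2.81e-07). G0S2, an inhibitor of fat breakdown, SBSPON, a matrix protein with a thrombospondin repeat, and FMO2, a monooxygenase, were lower, with log2 differences of -3.25 (SE 0.70, adjusted p = 0.00151), -3.23 (SE 0.40, adjusted p = 9.43e-06) and -2.98 (SE 0.24, adjusted p = 6.39e-08). PTN, like CASQ2 and GUCY1A2, was low in both kinds of artery sample, while SLIT2, at 15.8 ± 2.02 FPKM in the opposite artery, was lower in the graft than in either unoperated vessel.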

How the data were processed

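Total RNA of 20 rabbit vessel samples was sequenced in paired-end libraries, and 8 of them, 4 day 30 grafts and 4 veins, are compared here. Per the submitters' processing notes, fastp, HISAT2, StringTie, RSEM and DESeq2 were used; versions, genome build and the role of each tool are not given in the sources used here. Values were deposited by the authors as FPKM for 24964 transcripts in 1 table, with no counts, so no count test was run and depth is unknown. FPKM were summed per gene, 1278 of 23669 genes having more than 1 transcript. Of 8657 genes tested, 6825 had a symbol in the table, 626 took theirs from a RefSeq gene table of another assembly by NCBI number, and 1206 had none and were not named, so no coordinates are printed. The vein column names were tied to samples through the library names in the labels.

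limma 3.58.1 in R 4.3.3 fitted log2(FPKM + 1) over all 20 libraries with 1 mean per group and variances that follow the mean level; tests were two-sided. The fit was also run on simulated data with independent normal errors, with results not reported here. That simulation held no mixture-like libraries and no failed estimates, so it does not cover those traits of the data. Python 3.11.15, pandas 2.3.3, numpy 2.4.6 and matplotlib 3.10.9 made the tables and plots. Named genes were the 15 largest rises and falls whose groups did not overlap and whose higher group averaged 5 FPKM or more. Added to these were the 4 members of each list that passed with the smallest adjusted p (2 members where none passed), up to 2 called against a list's majority, and 21 genes always looked up where tested. This gave 180 genes, some of which are not reported here. The 39 lists hold 1089 different gene symbols, of which 621 could be tested, and some symbols are in more than 1 list. Lists, genes and tests were chosen with earlier results of these data known, and list counts are descriptions without a test of the list. For each library, weights on the other 3 of its group were tried in steps of 0.05, and those with the smallest median absolute log2 difference were kept. Alternatives changed the pseudocount, filter, scaling, samples fitted, weights, variance trend, transcript choice and replicate block, or left out single libraries.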

Additional observations from a re-analysis of the deposited data

Results flagged for a closer look

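Among the named genes, 360 groups of 4 libraries were examined, and in 20 of them the highest or lowest library stood apart from the other 3 by more than the 95% limit for such a gap. Chance flags about 1 group in 20 where the 4 libraries are independent. With a mixture-like library in both groups that may not hold, so the 20 flags cannot be judged against that rate. Of the 20, 9 fell in vein replicate 2 and none in vein replicate 4, the mixture-like vein. Among the veins, replicate 2 was high for matrix genes, at 34.5 FPKM for LOXL1 (others 29.6 to 30.2), 33.5 FPKM for FBN1 (24.2 to 25.2) and 1046.7 FPKM for MFAP4 (848 to 849), and for CYP1B1 at 28.1 FPKM (24.9 to 25.3). It was low for POSTN at 1.75 FPKM (5.77 to 7.04), for CIDEA, of fat cells, at 1.1 FPKM (5.75 to 7.2) and for CHRDL1, an antagonist of BMP signals, at 2.1 FPKM (4.24 to 4.68). Its CYTB at 0.1 FPKM and KCNK17 at 0.04 FPKM stood apart only because the other 3 veins were listed at 0. Vein replicate 3 was high for OSM at 0.42 FPKM (0.13 to 0.17), and vein replicate 1 for BCL2 at 3.12 FPKM (1.78 to 1.89).

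Of the grafts, replicate 1 was low for CD68 at 10.5 FPKM (82.7 to 112) and for ECM1 at 17.8 FPKM (23.2 to 24.4). Replicate 2 was low for ACKR1 at 31.1 FPKM (40.5 to 41.6) and ERBB3 at 0.19 FPKM (0.29 to 0.31) and high for SLC40A1 at 9.23 FPKM (4.76 to 5.16). Replicate 3 had ATP6 listed at 3.07 FPKM where the other grafts had 5609 to 9305 FPKM, and was the only graft with MT3 above 0, at 7.92 FPKM. Replicate 4 was the only graft above 0 for FHL2, at 1.59 FPKM, and for SOX10, a Schwann cell factor, at 0.01 FPKM.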

How the results depend on the processing

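The number of genes that passed, 2894, was 2730 with a pseudocount of 0.1, 2084 with a filter of 5 FPKM, and 3383 with none. It was 2919 with scaling by the median of ratios, 2252 after scaling to TPM, and 3067 after quantile normalization. It was 2849 with the 8 libraries alone, 3140 with weights by group, 2879 without a variance trend, 2870 with the highest transcript, and 2583 with genes listed at 0 in any of the 8 libraries left out. Leaving out 1 library gave 2479 to 2733 genes, 1393 to 1618 of them higher and 1055 to 1165 lower. Of these results, the number higher after scaling to TPM moved by more than 1.5 times, from 1664 to 1054; the cause was not tested. Of 175 named genes that passed, 165 lost their call under no alternative in which they were tested (153 of the 180 named genes were tested with the 5 FPKM filter and 156 with genes listed at 0 left out), and none of the 175 changed sign. EPB42, a red cell membrane protein that did not pass, was at -0.41 and ranged from -0.77 to 0.15 over the fits that leave out 1 library, turning positive without vein replicate 3. Fitting the replicate number as a block gave 2772 genes (1589 higher, 1183 lower) and took no call from a named gene. The numbers do not pair the samples: correlations of deviations between same-numbered graft and vein were -0.04, -0.03, -0.02 and 0.01. Of 78 list counts, 13 moved by more than 1.5 times without the 2 mixture-like libraries and 17 with the 5 FPKM filter, which tests fewer genes. With genes listed at 0 left out, 5 of 9 macrophage and 8 of 11 cytokine genes were higher, and the 1 B or plasma cell gene still tested did not pass. Depth is unknown, so no counting error can be given for low values.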

Other observations

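Of 23 genes of glycolysis and hypoxia 3 were higher and 1 lower in the graft than in vein (median 0.16), against 19.2% and 14.2% of all genes. After quantile normalization 2 of the list were higher and 5 lower. LDHA, which makes lactate, was at 170.22, 168, 148 and 161 FPKM in the grafts and 93.2, 79.9, 88.4 and 91.7 FPKM in the veins (log2 difference 0.87, SE 0.14, adjusted p = 0.000108). HIF1A, the oxygen-sensing factor, was at 139, 103, 90.9 and 115 FPKM and 68.9, 72.5, 70.9 and 69.4 FPKM (log2 difference 0.65, SE 0.10, adjusted p = 6.57e-05), and at 281 ± 2.29 FPKM in the opposite artery. ENO3, a muscle enolase, was higher (log2 difference 0.54, SE 0.16, adjusted p = 0.013) and SLC2A1, a glucose transporter, lower (log2 difference -0.79, SE 0.26, adjusted p = 0.0273). Both calls were unsteady: ENO3 was lost without vein replicate 3 (adjusted p = 0.0502), after scaling to TPM (0.0549) and after quantile normalization (0.146). SLC2A1 was lost without graft replicate 1 (0.084) or 3 (0.0943), without vein replicate 1 (0.0856), 3 (0.0515) or 4 (0.0644), without the 2 mixture-like libraries (0.0725), with the 8 libraries alone (0.0727) and with the highest transcript (0.126). Of 29 nuclear genes of oxidative phosphorylation 9 were lower and 1 higher (median -0.18). NDUFA9, a subunit of complex I, was lower (log2 difference -0.49, SE 0.11, adjusted p = 0.0029), and ATP5MC1, a subunit of the ATP synthase ring, was higher (log2 difference 0.77, SE 0.16, adjusted p = 0.00153).

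ADIPOQ, the fat cell hormone adiponectin, was at 395, 328, 290.33 and 331 FPKM in the grafts and 53.95, 15.7, 37.4 and 38.1 FPKM in the veins (log2 difference 3.29, SE 0.52, adjusted p = 0.000105), with 8.43 to 73.1 FPKM in the opposite artery and 66.2 ± 21.2 FPKM in day 14 grafts. Of 9 fat cell genes tested it was the only one higher. CIDEA, of lipid droplets, was lower at 0.54, 0.87, 0 and 0.31 against 7.2, 1.1, 6.57 and 5.75 FPKM (log2 difference -1.97, SE 0.37, adjusted p = 0.000495), and so was LEP, leptin (log2 difference -1.08, SE 0.34, adjusted p = 0.0201). LEP was lost without graft replicate 2 (adjusted p = 0.0658) or vein replicate 1 (0.0757), 3 (0.0611) or 4 (0.0531), with a pseudocount of 0.1 (0.0955), with the 8 libraries alone (0.083) and without the 2 mixture-like libraries (0.0891). CASQ1, a calcium store protein of skeletal muscle, was the 1 of 7 striated muscle genes that passed, at 1.65, 4.32, 1.66 and 2.04 FPKM in the grafts and 0 in all veins. Cartilage and bone genes were higher for 5 of 11 and lower for 2 (median 0.37), with 3 higher without graft replicate 2, without vein replicate 2 or without the 2 mixture-like libraries. SOX9, the cartilage factor, was at 5.02, 2.39, 1.3 and 2.56 FPKM in the grafts and 0.47, 0.35, 0.51 and 0.43 FPKM in the veins (log2 difference 1.32, SE 0.33, adjusted p = 0.00525), and CNMD, chondromodulin, which keeps vessels out of cartilage, was lower (log2 difference -1.23, SE 0.28, adjusted p = 0.00277), with 13.8 ± 2.01 FPKM in the opposite artery. In the complement and coagulation list 4 of 14 were higher and 4 lower (median -0.26), against 19.2% and 14.2% of all genes. PROCR, the endothelial receptor for protein C, was at 21.3, 11.7, 13.6 and 16.1 FPKM in the grafts and 55.4, 76.3, 58.6 and 59.9 FPKM in the veins (log2 difference -1.95, SE 0.24, adjusted p = 7.22e-06), and PROS1, the cofactor protein S, was lower (log2 difference -0.87, SE 0.15, adjusted p = 0.000257), as was the complement inhibitor CFI (log2 difference -0.79, SE 0.13, adjusted p = 0.000224). F2R, the thrombin receptor, was at 15.7, 18.5, 14.2 and 17.5 FPKM and 6.24, 5.93, 7.85 and 7.64 FPKM (log2 difference 1.14, SE 0.20, adjusted p = 0.000225).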
